A study of Mus musculus with 30 samples.

Results

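The muscle of EAE-induced mice was compared between day 40 and day 14 after immunization, in 5 mice on each day out of the 30 mice of the series, and across the 8709 of 21073 genes whose mean exceeded 3 RPKM (reads scaled by exon length and by the size of the library) in either of these groups. EAE, experimental autoimmune encephalomyelitis, is a model of multiple sclerosis in which an immune response to a myelin peptide paralyses the hind limbs. In this protocol female wild-type SJL/J mice received the [Ser140]-PLP139-151 peptide in complete Freund's adjuvant (CFA), and day 14 fell in the peak of disease and day 40 in chronic remission. Clinical scores of the individual mice used for sequencing were not used here. The EDL, the extensor digitorum longus, is a fast muscle of the lower hind limb. The same day contrast was available in unimmunized mice (Ctrl, 5 per day) and in mice given ovalbumin in CFA (OVA, 5 per day), all female SJL/J, so that the OVA mice shared the adjuvant but not the myelin antigen. Every mouse was sampled once, so the days were compared between different animals. Ages were not given in the sources used here.

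A muscle fibre is kept in its adult state by its motor nerve. When nerve activity is lost, the fibre makes myogenin and its relatives again, spreads embryonic acetylcholine receptors over its membrane, and turns on ubiquitin ligases that break down its proteins, while the genes of energy metabolism fall. On reinnervation or renewed activity the fetal receptor subunit gives way to the adult one at the synapse, and collagen and tendon cells renew the matrix through which force is passed on.

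The libraries held 17940000 to 31340000 reads on genes, estimated from the size of a single read in the table, and 1 day 14 EAE mouse (replicate 3) was the deepest. For each of the 60 within-group pairs of libraries, the mean squared difference over genes was 10.8 or more times its value under counting error, and none was a duplicate. Among the defining genes of fast muscle, Acta1, Myh4 and Actn3 were abundant on both days and not called. Their means on day 14 and day 40 were 16700 and 17130 RPKM, 5820 and 6208, and 1518 and 1538. The other defining genes, Ckm and Pvalb, were called higher on day 40, as given below. The median SD over genes on the log2 scale was 0.214 on day 14 and 0.152 on day 40 in EAE-induced mice, 0.226 and 0.168 in Ctrl and 0.224 and 0.118 in OVA, so the mice of day 14 varied more in all 3 treatments.

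In every treatment, genes of the intestine separated all day 40 libraries from all day 14 libraries. Defa24 and Defa30, which encode antimicrobial defensins of Paneth cells, Fabp2 and Fabp1, fatty acid-binding proteins of enterocytes, and Reg3b, an intestinal lectin, were listed at 0 in all 15 day 14 mice and were present in all 15 day 40 mice. Defa24 reached 15.6, 21.4, 28.3, 13.6 and 19.4 RPKM in the day 40 EAE mice, against a mean of 27.3 ± 5.52 (SD, n = 5) in unimmunized mice of that day. In all, 45 genes were at 0 in every day 14 mouse and above 0 in every day 40 mouse, and 0 genes showed the opposite. A list of 58 intestinal genes was then compiled, after these values had been seen. Summed over the 52 of them that are not also widely expressed in other tissues, the level was 1.18 to 1.66 RPKM in day 14 and 78.3 to 113 RPKM in day 40 EAE mice, 1.62 to 2.79 and 99.6 to 134 in Ctrl, and 0.894 to 1.81 and 69.0 to 110 in OVA. Summed over all 58, it was 53.8 to 73.2 and 176 to 244 RPKM in EAE mice. The intestinal genes held 7 of the 15 strongest increases in EAE-induced mice. Of the 12 tested, 12 were called higher, 10 of them also in Ctrl and 9 also in OVA mice. As the list followed these values and genes such as Defa24 passed the filter only through day 40, this count was largely fixed beforehand. Without the intestinal list and the genes at 0 in all day 14 mice, the calls were 709 higher and 1136 lower. The day and whatever brought these transcripts into the libraries of that day cannot be told apart, and their part in other differences was not tested. For this reason most lists below are set beside the same contrast in unimmunized mice or beside the test of the difference between the day changes. A list given without either has no such background here. Outside the intestinal list, this difference was not called for Chrne, Cd24a, Nog, Mt1, Mt2, Sesn1, Rplp2, ATP8, ND4L, ND3, Fn1, Retnlg and Tgtp1 among the genes named below with a call in EAE-induced mice.

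**Figure D1:**
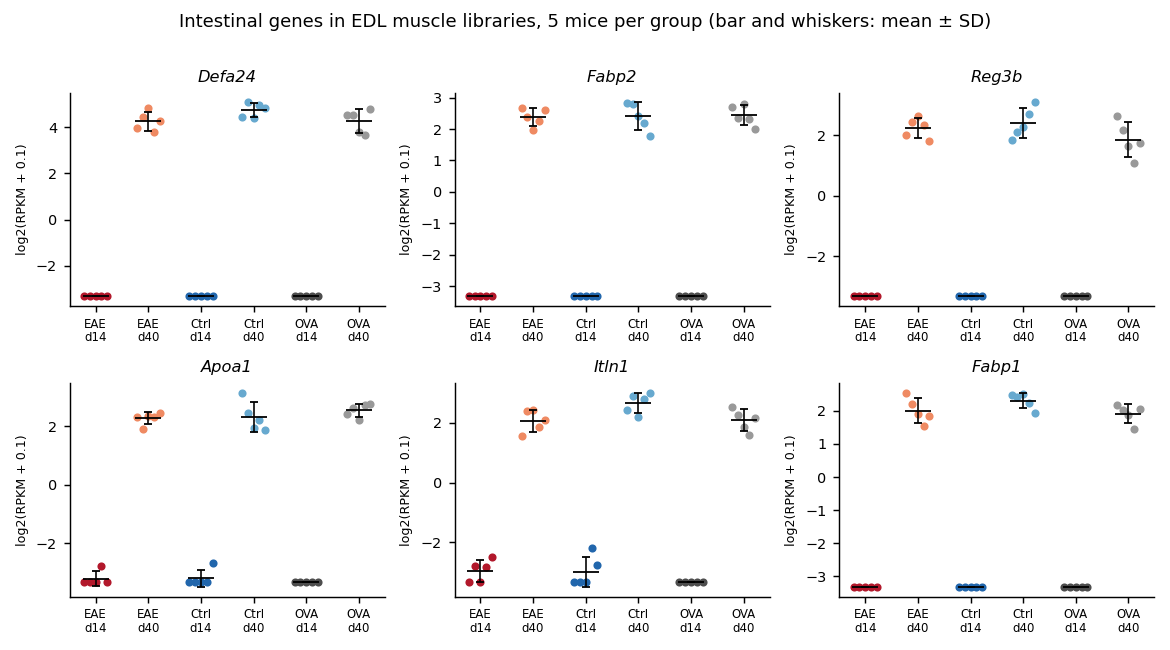
Level of 6 intestinal genes, as log2(RPKM + 0.1), in the EDL libraries of the 6 groups, with a point for each of 5 mice and a bar and whiskers for mean ± SD. Every day 40 mouse lies far above every day 14 mouse in EAE, Ctrl and OVA groups alike.

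In EAE-induced mice the level of 721 genes (8.28% of those tested) rose and that of 1136 (13.0%) fell from day 14 to day 40, with a Benjamini-Hochberg adjusted p below 0.05 in limma and a fold change above 1.5. In unimmunized mice the same test called 544 of 8788 genes (6.19%), with 206 higher (2.34%) and 338 lower (3.85%), but 33 higher without Ctrl day 40 replicate 3 and 514 lower without Ctrl day 14 replicate 5. The test called in OVA mice 305 of 8648 (3.53%), with 194 higher (2.24%) and 111 lower (1.28%), or 51 lower without OVA day 40 replicate 4. The day change of EAE-induced mice differed from that of unimmunized mice in 2875 genes (33.0%), 1009 upward (11.6%) and 1866 downward (21.4%), tested as an interaction over all 30 mice, and from that of OVA mice in 1927 genes (22.1%, with 8.26% upward and 13.9% downward), tests that share the EAE-induced mice with the day comparison itself. After median-of-ratios scaling the difference from unimmunized mice was 1359 upward and 1344 downward, and after quantile normalization 1282 and 1221, the median over genes moving from -0.16 to -0.03 and -0.02. The 5 and 5 EAE mice did not overlap in 885 genes (10.2%) in the upward and 1906 (21.9%) in the downward direction, together 32.0%, against 6.73% and 5.20%, together 11.9%, in unimmunized mice. The genes just outside the filter were Gcat, Trmt12 and Spata1 with a larger group mean of 2.9973 to 2.9985 RPKM, and those just inside it Apex2, Rasl2-9 and Pfas with 3.0038 to 3.0041. The median fold change was 1.81 in either direction, with 36 genes raised and 62 lowered over 4-fold. When each of the 10 mice was left out in turn, 537 genes were called higher and 845 lower every time. The split between directions moved with the scaling: 806 higher and 1019 lower after median-of-ratios scaling, and 893 and 827 after quantile normalization. The median change of all tested genes was -0.11 on the log2 scale in the deposited scaling, -0.07 and -0.01 after these, so the list medians given below are to be read against -0.11.

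The change also ran with exon length in the controls. In unimmunized mice the median log2 change was -0.45 for genes under 1 kb of exon and 0.27 for those over 4 kb, and in OVA mice -0.32 and 0.13, while in EAE-induced mice it was -0.04 and -0.19. Removing each library's trend with exon length, an alternative chosen after seeing the data, gave 898 higher and 870 lower calls in EAE-induced mice and 108 and 194 in Ctrl. Its effect is given beside the lists of short genes.

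**Figure D2:**
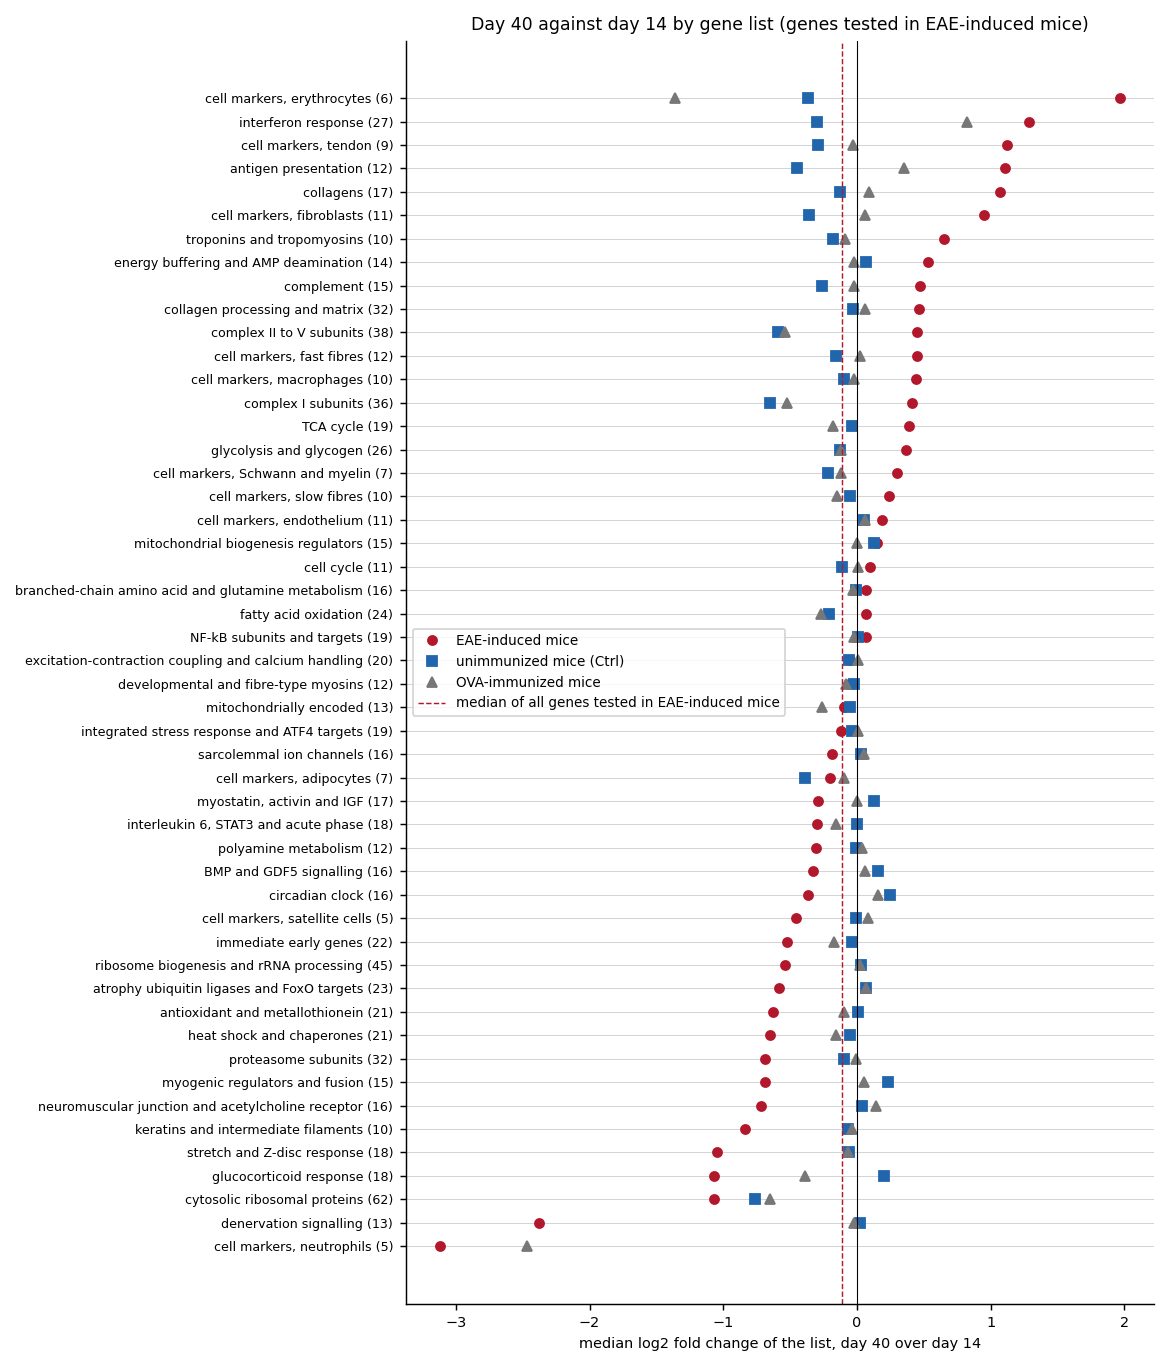
Median log2 fold change of day 40 over day 14 for each gene list with at least 5 tested genes (number tested in EAE-induced mice in brackets), in EAE-induced (circles), unimmunized (squares) and OVA-immunized mice (triangles). The denervation (-2.38) and neutrophil (-3.12) lists lie farthest to the left in EAE-induced mice and erythrocytes (1.97) and interferon response (1.29) farthest to the right.

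Genes of the neuromuscular junction moved in both directions. Of 16 tested junction and acetylcholine receptor genes, 8 were called lower on day 40, 3 higher and 5 in neither direction (median log2 change -0.72), while 0 were called in either direction among 12 tested in unimmunized and 11 in OVA mice. The day change differed from that of unimmunized mice in 11 of the 16, 9 downward and 2 upward.

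Chrng encodes the gamma subunit of the receptor's fetal form (Entrez 11449, GRCm38 chr1:87205811-87211835). Its level was 11.5, 16.4, 5.5, 3.88 and 15.6 RPKM in replicates 1 to 5 on day 14, and 0.425, 0.767, 0.834, 0.565 and 0.566 on day 40. The groups did not overlap, and on day 14 replicates 3 and 4 lay below the other three mice. The log2 fold change was -3.69 ± 0.36 (SE, adjusted p = 2.05e-05, limma), and unimmunized mice had 1.09 ± 0.41 and 0.853 ± 0.115 RPKM (SD, n = 5) on the 2 days.

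Chrna1, the alpha subunit of muscle (Entrez 11435, chr2:73563281-73580338), fell from 84.7, 69.2, 25.8, 48.6 and 50.7 RPKM to 5.51, 5.4, 5.68, 5.62 and 6.51. The day 40 mice lay close together and far below every day 14 mouse, and unimmunized mice had 6.13 ± 1.11 RPKM on that day. The change was 8.90-fold (log2 -3.15 ± 0.24, adjusted p = 6.34e-06, limma). The delta and beta subunits followed, Chrnd by 2.23 and Chrnb1 by 1.72 on the log2 scale, and Chrna9, a subunit best known from hair cells, went from 2.46 to 10.7 RPKM on day 14 to at most 0.0458 on day 40.

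The adult subunit moved the other way. Chrne, the epsilon subunit, was at 10.6, 7.77, 8.48, 9.36 and 6.83 RPKM on day 14 and at 15.2, 12.4, 14.7, 12.7 and 11.3 on day 40. The ranges did not meet, but the fold change of 1.54 was just past the threshold (log2 0.62 ± 0.12, adjusted p = 0.0016, limma), and it went under 1.5 with a pseudocount of 1 (log2 0.57) and without EAE day 14 replicate 5, EAE day 40 replicate 1 or EAE day 40 replicate 3 (log2 0.54 to 0.58). Expressed as a ratio within each mouse, log2 of Chrng to Chrne was 0.10 ± 1.05 on day 14 and -4.21 ± 0.40 on day 40 (SD, n = 5, exact permutation p = 0.00794, the smallest 5 against 5 mice can give, adjusted over 7 ratios 0.0278). In unimmunized mice it was -3.41 ± 0.36 and -3.75 ± 0.09 (exact permutation p = 0.0794).

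The kinase Musk, which organizes the postsynaptic membrane, held 6.3, 19.4, 5.15, 5.1 and 9.16 RPKM on day 14 and 0.348, 1.28, 0.438, 1.01 and 0.694 on day 40. Replicate 2 of day 14 stood above the rest, and no mouse of day 40 reached the day 14 range. Its adaptor Dok7 fell by 0.94 on the log2 scale and the adhesion molecule Ncam1 by 2.52. Ache, the enzyme that clears acetylcholine from the cleft, increased from 11.1 ± 4.35 to 28.2 ± 5.65 RPKM (log2 1.41 ± 0.23, adjusted p = 0.00049, limma), and Colq, the collagen tail that anchors it, from 3.41 ± 1.85 to 6.31 ± 0.595, where day 14 replicate 3 with 6.67 RPKM lay among the day 40 mice.

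Of the receptor genes that fell, the promoters of the gamma and alpha subunits are shown, both of which hold the motif described here. The windows reach from 250 bases before to 50 bases after the gene start (RefSeq, GRCm38.p6), are read 5′ to 3′ along the gene, and carry in capitals each CAGCTG, an E-box that myogenin and MyoD can bind. Chrng lies on the plus strand at chr1:87205561-87205860 and holds the motif 155 and 132 bases before its start. Chrna1 lies on the minus strand at chr2:73580289-73580588 and holds it 92 and 44 bases before its start.
Chrng: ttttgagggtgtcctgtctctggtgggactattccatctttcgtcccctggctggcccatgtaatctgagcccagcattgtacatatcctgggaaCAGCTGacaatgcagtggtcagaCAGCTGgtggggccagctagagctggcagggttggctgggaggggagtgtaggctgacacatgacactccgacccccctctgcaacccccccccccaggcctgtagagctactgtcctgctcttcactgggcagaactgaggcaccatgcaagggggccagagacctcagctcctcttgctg
Chrna1: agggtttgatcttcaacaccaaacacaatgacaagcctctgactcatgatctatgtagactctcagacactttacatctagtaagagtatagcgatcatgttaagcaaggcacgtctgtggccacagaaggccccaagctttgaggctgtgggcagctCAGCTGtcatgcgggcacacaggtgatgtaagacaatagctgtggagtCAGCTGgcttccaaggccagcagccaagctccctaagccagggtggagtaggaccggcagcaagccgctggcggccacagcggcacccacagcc
CAGCTG reads the same on both strands. It was found in the windows of 5 of the 13 junction and denervation genes called lower that have a window (Chrna1, Chrng, Chrna9, Musk and Cdkn1a), which is 5 of 16 windows (31.2%), against 16.3% of all 32851 windows and 15.2% of those of the genes tested. The windows of Chrnb1, Myog and Ankrd1 did not hold these letters, and Chrnd had no window.

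**Figure D3:**
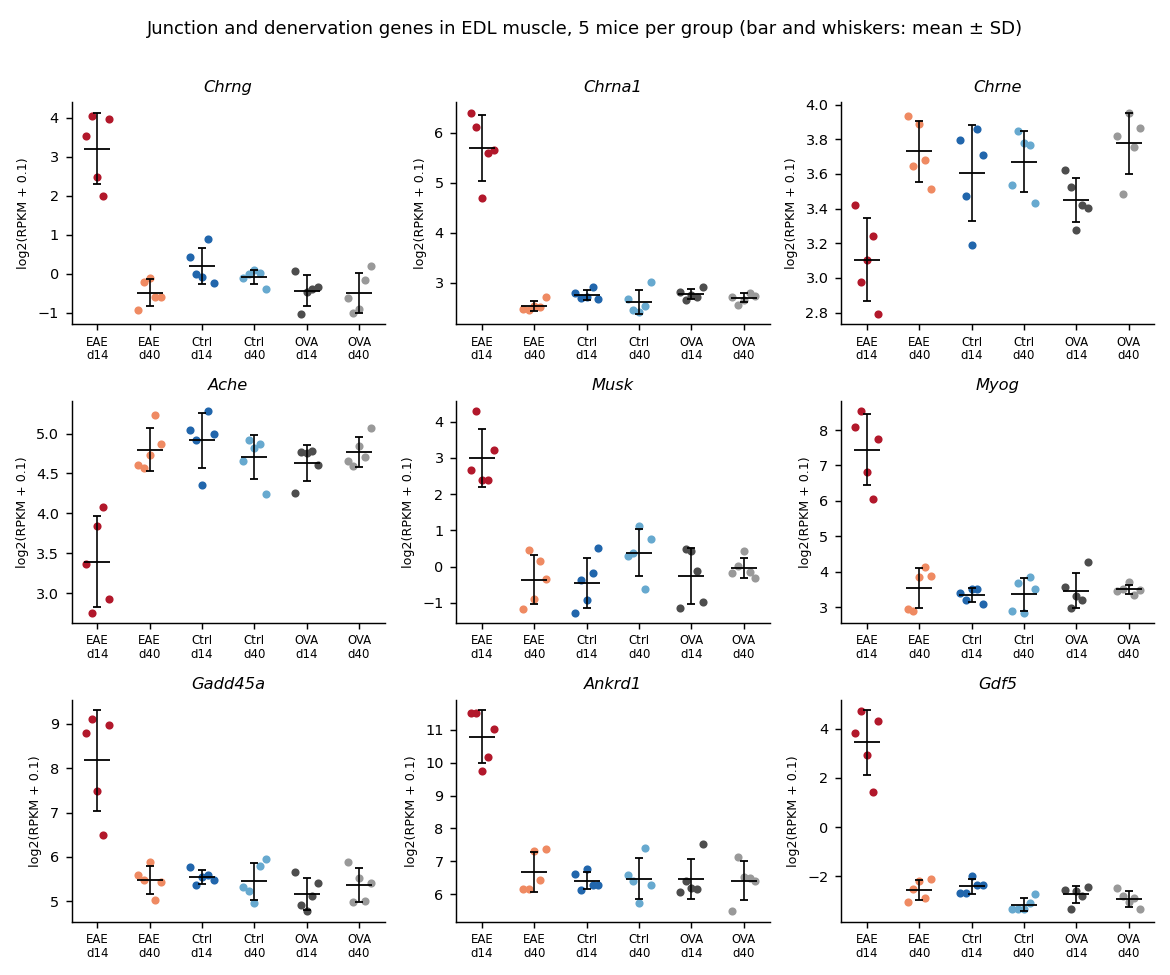
The 9 genes shown, of the junction and the response to denervation, are plotted in the 6 groups as log2(RPKM + 0.1), with a point for each of 5 mice and a bar and whiskers for mean ± SD. The day 14 EAE mice lie above all other groups for Chrng, Chrna1, Musk, Myog, Gadd45a, Ankrd1 and Gdf5 and below them, or at their lower edge, for Chrne and Ache.

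Genes known to respond to denervation fell steeply. Of 13 tested genes 9 were called lower and 2 higher (median -2.38), with 0 of 11 called in unimmunized and 0 of 11 in OVA mice, and 10 of the 13 differed downward in the test against unimmunized mice. The 2 that increased were Cd24a and Fzd9, by 0.58 and 0.75 on the log2 scale.

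Myog, myogenin, the transcription factor that activates receptor genes (Entrez 17928, chr1:134290004-134292548), was at 273, 369, 112, 65.9 and 216 RPKM on day 14 and at 7.61, 7.38, 14.2, 17.3 and 14.7 on day 40. Its 15.0-fold fall (log2 -3.91 ± 0.42, adjusted p = 3.38e-05, limma) left a mean of 12.2 ± 4.49, against 10.6 ± 3.29 in unimmunized mice. Upstream of it, Hdac4, a deacetylase that links lost activity to myogenin, fell by 2.38, and the transcription factor Runx1 by 2.74 on the log2 scale.

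Gadd45a, which remodels the chromatin of denervated fibres, read 446, 549, 180, 90.7 and 502 RPKM on day 14 and 47.8, 44.6, 59.2, 32.6 and 43 on day 40. As with Myog and Chrng, replicates 3 and 4 were the lowest of day 14, and still above all mice of day 40. Cdkn1a, the cell-cycle inhibitor p21, dropped by 2.95 on the log2 scale, from 198 ± 80.2 to 24.1 ± 4.57 RPKM.

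On the scale of log2(RPKM + 0.1) the change of a gene near 0 is understated. Kcnn3, a calcium-activated potassium channel of denervated muscle, fell by 2.89 on the log2 scale, whereas Scn4b, an accessory channel subunit, increased from 58.5 ± 27.1 to 146 ± 14.0 RPKM. Of 16 membrane channels tested, 12 were not called.

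Among the myogenic regulators 9 of 15 were called lower and 0 higher (median -0.69), with 1 of 15 called in unimmunized mice. Myod1 was at 84.3, 95.9, 57, 24.3 and 78.2 RPKM on day 14 and at 13.2, 15.8, 18.4, 16.1 and 13 on day 40, and Myf6 fell by 1.85 on the log2 scale. The satellite cell list had 5 testable genes, of which Cdh15 and Sdc4 were lower. Of its 6 genes tested in unimmunized mice 0 were called, and the difference was called downward in 2. Sln, sarcolipin, which inhibits the calcium pump, fell from 28.2 ± 15.4 to 5.88 ± 0.923 RPKM, with a log2 change of -0.06 in unimmunized mice.

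The steepest fall of all was that of Gdf5, a BMP-family ligand made by denervated fibres (Entrez 14563, chr2:155941023-155945367). It was present at 13.9, 26.4, 7.53, 2.58 and 19.7 RPKM on day 14 and at 0.0221, 0.0748, 0.119, 0.0376 and 0.134 on day 40. No other group of mice had a mean above 0.0922 RPKM. The log2 change was -5.98 ± 0.52 (adjusted p = 1.11e-05, limma), and its difference from the change in unimmunized mice was -5.23 (adjusted p = 4.11e-07, limma). Of the 16 tested genes of BMP signalling 3 were called lower, Gdf5, the receptor Bmpr2 (by 1.19) and the antagonist Nog (by 0.77), and 13 were not called. Over all tested genes 13.0% were called lower. For this list 1 of 14 was higher and 1 lower in unimmunized mice. The difference was called downward in 5 of the 16, beside 21.4% of all tested genes. In the myostatin, activin and IGF list 5 of 17 fell, among them Mstn, myostatin, by 0.99 and its inhibitor Fst by 1.06, and Igfbp6 increased. For this list 2 of 19 were higher and 1 lower in unimmunized mice. The difference was called downward in 6 and upward in 2.

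Genes that answer stretch at the Z-disc formed another falling list, with 11 of 18 lower and 1 higher (median -1.05), against 2 of 18 lower in unimmunized mice. Ankrd1, a muscle ankyrin repeat protein bound to titin (Entrez 107765, chr19:36111965-36119844), was at 2911, 2912, 856, 1154 and 2094 RPKM on day 14 and at 71.4, 71.4, 158, 86.6 and 165 on day 40. It was thus an abundant transcript on day 14 and fell 17.2-fold (log2 -4.11 ± 0.36, adjusted p = 1.11e-05, limma). Its relative Ankrd2 fell by 2.16, and the small heat shock proteins Hspb1 and Cryab by 2.33 and 1.45 on the log2 scale, though Hspb1 was also called lower in unimmunized mice (log2 -1.19). Csrp3, the muscle LIM protein, averaged 389 ± 318 and 169 ± 89.4 RPKM and was not called (adjusted p = 0.107, limma), and without EAE day 14 replicate 3 it was (adjusted p = 0.0157). The exception was Actc1, cardiac actin, which was 38.2 ± 4.83 RPKM on day 14 and 116 ± 34.0 on day 40 in EAE-induced mice but 250 ± 108 and 92.1 ± 36.1 in unimmunized mice, where it was called lower.

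Intermediate filaments fell with them, in 7 of 10 genes, with 1 higher. Of 7 tested in unimmunized mice 0 were called, and the difference was called downward in 5 and upward in 1. Krt18, a keratin of simple epithelia, was at 21, 16.8, 5.1, 4.54 and 9.12 RPKM on day 14 and at 0.401, 0.248, 0.393, 0.341 and 1.18 on day 40. Its partner Krt8 averaged 4.02 ± 2.74 and 1.39 ± 0.284 RPKM, and this call was lost without any of EAE day 14 replicate 2, 4 or 5 or EAE day 40 replicate 1, 3 or 5 (adjusted p = 0.0524 to 0.077, limma). In unimmunized mice Krt8 was 0.0383 on day 14 and 1.75 RPKM on day 40, like the intestinal genes. Of 21 heat shock and chaperone genes 9 were lower and 0 higher, with 2 lower in unimmunized mice and a difference called downward in 11. Of 21 antioxidant and metallothionein genes 11 were lower and 2 higher, with 3 lower in unimmunized mice and a difference called downward in 7 and upward in 2.

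Protein breakdown was the next group. Of 23 tested atrophy ligases and FoxO targets 11 were lower and 0 higher (median -0.58), while in unimmunized mice 1 of 24 was higher and 1 lower. The difference between the day changes was called in 15 of the 23, all downward. Fbxo32, atrogin-1, was at 77.4, 214, 117, 52 and 223 RPKM on day 14 and at 54.6, 47.1, 56.2, 36.1 and 50.9 on day 40, so that the lowest mouse of day 14 lay within the day 40 range. Its fall (log2 -1.28 ± 0.35, adjusted p = 0.0093, limma) stood beside a rise in unimmunized mice, from 40.3 ± 10.3 to 74.9 ± 11.3. Trim63, MuRF1, the other muscle ligase, had 240, 477, 229, 145 and 395 RPKM on day 14 and 104, 102, 125, 128 and 131 on day 40.

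Autophagy and FoxO factors took part too. Map1lc3a, LC3, which coats autophagosomes, fell from 776 ± 246 to 156 ± 23.6 RPKM, and it fell in unimmunized mice as well (195 ± 48.6 to 121 ± 25.8). Foxo3, which drives the ligases, dropped by 1.47, and the receptor Eda2r, whose ligand promotes wasting, by 3.56 on the log2 scale. Cdkn1a is counted in this list too.

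The proteasome moved as a block of small changes. Of 32 subunits 21 were called lower and 0 higher, 32 had a negative change (log2 -1.43 to -0.32) and in 29 the mice did not overlap, where 21.9% of all tested genes did so in that direction. Psmd8 was at 413, 313, 197, 246 and 321 RPKM on day 14 and at 109, 91.1, 110, 104 and 123 on day 40, and Psmd2 fell from 255 ± 43.1 to 107 ± 4.49 RPKM. In unimmunized mice 1 of 32 was called, and the difference between day changes was called downward in 13.

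Steroid-responsive genes fell in 10 of 18 and increased in 1, Sesn1 (median -1.07). In unimmunized mice 1 was called higher and 1 lower, and the difference between the day changes was called downward in 7 of the 18 against unimmunized mice and in 4 against OVA mice. Fkbp5, a chaperone of the glucocorticoid receptor that the receptor itself induces, was at 13.2, 15.7, 8.07, 15.9 and 27.8 RPKM on day 14 and at 2.68, 2.76, 2.07, 2.31 and 4.32 on day 40. The metallothioneins Mt1 and Mt2 dropped by 1.98 and 1.81, with log2 changes of -0.98 and -0.75 in unimmunized mice that were not called, and the difference was not called either (adjusted p = 0.183 and 0.217, limma). Glul, glutamine synthetase, fell from 219 ± 19.8 to 93.8 ± 24.6 RPKM, and its difference from the unimmunized change was -1.17 (adjusted p = 8.8e-05, limma). Per1, a clock gene induced by the receptor, fell by 1.43 in EAE-induced and increased by 1.52 in unimmunized mice. Among 16 clock genes Rora, Per1 and Cry2 were lower, beside 13.0% of all tested genes. Unimmunized mice had 2 of 16 clock genes higher and 0 lower, and the difference was called downward in 7. In the list of immediate early genes 5 of 22 were lower, with 4 without EAE day 14 replicate 1 and 8 without EAE day 40 replicate 4. Over all tested genes the share called lower was 13.0%. For this list 1 of 21 was lower in unimmunized and 1 of 21 in OVA mice. The difference from unimmunized mice was called downward in 8.

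In the polyamine list 4 of 12 genes were lower and 1 higher, and 2 lower without EAE day 14 replicate 1. In unimmunized mice 1 was lower. The difference was called downward in 3 of the 12 and upward in 1, near the shares over all tested genes (21.4% downward and 11.6% upward). Odc1, which makes putrescine, went from 51.3 ± 18.8 to 15.4 ± 2.45 RPKM, and Atp13a3, a polyamine transporter, from 33.3 ± 14.8 to 4.04 ± 0.78. Ampd3, an AMP deaminase of atrophying muscle, was at 18, 39, 12.7, 8.86 and 26.1 RPKM on day 14 and at 2.31, 3.54, 2.44, 3.69 and 3.64 on day 40. The amino acid transporter Slc7a5 fell by 2.47 on the log2 scale. For Odc1 and Ampd3 the difference from the unimmunized change was -1.57 and -3.22, and it was called for these and for Slc7a5. Among the 15 steepest falls were also Cpne2, a copine that binds membranes in response to calcium, from 57.0 ± 19.8 to 4.32 ± 0.607 RPKM, Ces2c, a carboxylesterase, from 8.89 ± 3.36 to 0.318 ± 0.147, and Tekt1, a tektin of cilia, from 8.44 ± 3.1 to 0.701 ± 0.228.

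The machinery that builds ribosomes fell in 19 of 45 tested genes and increased in 0 (median -0.54), with 0 of 44 called in unimmunized mice, and the difference was called downward in 19. Bop1, which processes ribosomal RNA of the large subunit, was at 37.1, 37.3, 22.7, 25.8 and 30.8 RPKM on day 14 and at 10, 11.4, 11.1, 10.9 and 11.4 on day 40. Rrp12 fell by 1.38 on the log2 scale. After quantile normalization 10 of the 45 remained past the threshold.

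Ribosomal proteins themselves were lower in 48 of 62 (median -1.07), but 35 of 62 were lower in unimmunized mice as well (median -0.76), and 13 of 61 in OVA mice. The difference between EAE-induced and unimmunized mice was called in 7, with a median of -0.17. Rplp2, an acidic stalk protein, shows this: 310 ± 85.6 and 131 ± 19.6 RPKM in EAE-induced mice, 252 ± 84.7 and 114 ± 28.0 in unimmunized mice. Rpl4, with 627 ± 97.5 and 386 ± 19.7 RPKM, did not, for unimmunized mice had 347 ± 39.4 and 363 ± 41.2. These genes are short and have many near-identical pseudogenes, so single values are uncertain. With the trend by exon length removed, 24 differed from the unimmunized change and 47 were lower in EAE-induced mice.

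**Figure D4:**
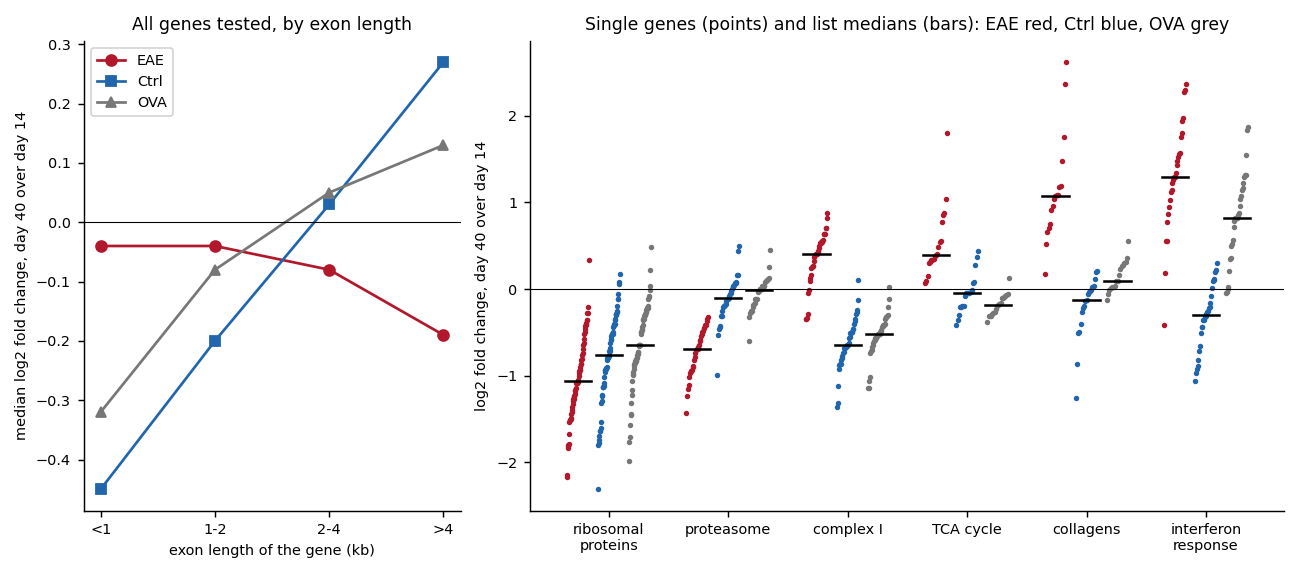
Left, median log2 fold change of day 40 over day 14 for all tested genes in 4 classes of exon length, in EAE-induced, unimmunized and OVA-immunized mice. Right, the same change for each gene (points) of 6 lists, with the list median (bar), where ribosomal proteins fall in all 3 kinds of mice and the proteasome in EAE-induced mice, with list medians of -0.69, -0.10 and -0.01.

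Among genes of energy metabolism most were not called, and more of those called were higher than lower. Of 19 tested genes of the TCA cycle 5 were called higher and 0 lower, and all 19 had a positive change (median 0.39), against 0 of 19 called in unimmunized mice. Idh2, the mitochondrial NADP isocitrate dehydrogenase (Entrez 269951, chr7:80094845-80118608), was at 50.2, 32.6, 102, 63 and 52 RPKM on day 14 and at 227, 201, 205, 125 and 237 on day 40. The groups did not overlap, and the day 40 mean of 199 ± 43.9 stood beside 180 ± 24.3 in unimmunized mice. Its log2 change was 1.80 ± 0.26 (adjusted p = 0.000204, limma). Mdh2, mitochondrial malate dehydrogenase, increased by 0.88, from 491 ± 55.3 to 904 ± 87.5 RPKM.

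In glycolysis and glycogen metabolism 10 of 26 genes were higher and 1 lower, Gbe1, the glycogen branching enzyme, while in unimmunized mice 1 was higher and 3 lower, and the difference was called upward in 14 and downward in 2. Ldha, which makes lactate, was at 608, 323, 606, 617 and 392 RPKM on day 14 and at 1420, 1256, 1431, 1350 and 1195 on day 40, and the muscle enolase Eno3 increased from 1586 ± 450 to 4093 ± 240. Replicates 2 and 5, the 2 highest of day 14 in Gadd45a, were the 2 lowest in Ldha. Pfkfb1, which makes the activator of phosphofructokinase, increased from 9.96 ± 2.35 to 26.2 ± 4.02 RPKM and Tpi1, triosephosphate isomerase, by 1.41 on the log2 scale. Ldha over Ldhb did not change past the threshold, with log2 ratios of 2.98 ± 0.22 and 3.29 ± 0.25 (SD, n = 5, exact permutation p = 0.0714, adjusted 0.10).

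The energy buffer gained 7 of 14 genes and lost 1, the deaminase Ampd3 described above. Unimmunized mice gained 1 and lost 1, and the difference was called upward in 6 and downward in 2. Ckmt2, the mitochondrial creatine kinase, was at 381, 208, 387, 425 and 318 RPKM on day 14 and at 1402, 1237, 1348, 1037 and 941 on day 40 (log2 1.82 ± 0.19, adjusted p = 2.55e-05, limma). Ckm, the cytosolic kinase and one of the most abundant muscle transcripts, increased by 0.60 and was no longer called after quantile normalization (log2 0.12). Without EAE day 14 replicate 2, the gain was 4 genes.

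Respiratory chain subunits had medians of opposite sign in EAE-induced and unimmunized mice. Of 36 complex I subunits 7 were higher and 0 lower (median 0.41), in unimmunized mice 19 were lower (median -0.65), and the difference was called upward in 33. The count of 7 was 4 without EAE day 14 replicate 2 and 12 without EAE day 14 replicate 1. Ndufb10 was at 481, 258, 337, 385 and 325 RPKM on day 14 and at 771, 583, 766, 567 and 566 on day 40, while unimmunized mice had 772 ± 244 and 518 ± 111. For complexes II to V, 11 of 38 were higher and 1 lower, Atp5g1, with 17 of 38 lower in unimmunized mice and 32 differing upward. Cycs, cytochrome c, increased from 11.1 ± 2.17 to 26.5 ± 2.51 RPKM, and unimmunized mice stayed at 23.8 ± 4.82 and 22.4 ± 2.21. Removing the trend with exon length left 4 of 36 complex I genes lower in unimmunized mice and 26 differing upward. Of 13 genes encoded by mitochondria 3 were lower, ATP8, ND4L and ND3, and 0 higher (median -0.10), with 2 lower in unimmunized and 5 in OVA mice. The difference from unimmunized mice was called upward in 1. The EAE mice did not overlap upward in 6 of the 13 and downward in 3, beside 10.2% and 21.9% of all tested genes. Summed over the 13, the level was 61100 to 67200 RPKM on day 14 and 75400 to 89600 on day 40. Unimmunized mice had 41100 to 84000 and 73600 to 77500.

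Regulators of mitochondria were mixed, with 6 of 15 higher and 1 lower, and 0 of 15 called in unimmunized mice. The difference was called upward in 4 and downward in 2 (median -0.07). Perm1, a muscle regulator that acts with the PGC-1 coactivators, was at 24, 12, 34.4, 42 and 16.2 RPKM on day 14 and at 72, 92.1, 75.6, 73.8 and 81.2 on day 40. Esrra, the nuclear receptor ERR alpha, increased by 0.71. Ppargc1a, PGC-1 alpha, averaged 4.71 ± 0.457 and 6.23 ± 1.07 RPKM and did not reach the fold threshold (log2 0.39 ± 0.13, adjusted p = 0.023, limma). In fatty acid oxidation 3 of 24 genes were higher and 1 lower (median 0.07), beside 8.28% higher and 13.0% lower of all tested genes. Unimmunized mice had 1 higher and 1 lower, and the difference was called upward in 8 and downward in 2.

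Contractile and calcium genes were next. Of 10 troponins and tropomyosins 6 were higher and 0 lower (median 0.65), but 2 were after quantile normalization. None of the 10 was called in unimmunized mice, and the difference was called upward in 7. Tnnc2, fast troponin C, rose from 8600 ± 1940 to 14347 ± 2140 RPKM, and in unimmunized mice had 16635 ± 5440 and 11712 ± 2100. Pvalb, parvalbumin, the calcium buffer of fast fibres, was at 6521, 3161, 7002, 5343 and 4820 RPKM on day 14 and at 12892, 9755, 13632, 12855 and 13269 on day 40, and Casq1, calsequestrin, the calcium store, increased by 1.15. Of 12 fast-fibre markers 6 were higher and of 10 slow-fibre markers 4, among them Myl3, by 1.59. The slow count was 2 without EAE day 14 replicate 2 or EAE day 40 replicate 5. No marker of either fibre list was called in unimmunized mice, and the difference was called upward in 7 fast and 4 slow markers. Within mice, log2 of Myh4 to Myh1, the fastest over the next fast myosin, went from 1.46 ± 0.35 to 2.02 ± 0.23 (exact permutation p = 0.0238, adjusted 0.0417, n = 5), and in unimmunized mice from 1.77 ± 0.31 to 2.21 ± 0.32 (exact permutation p = 0.0714). This call was lost when any of the EAE mice but day 14 replicate 3 was left out (adjusted 0.0556 to 0.0972). Myh4 over Myh7, the slow myosin, was 5.99 ± 0.32 and 6.08 ± 0.46 (exact permutation p = 0.706), and Atp2a1 over Atp2a2, the fast over the slow calcium pump, 6.83 ± 0.25 and 6.87 ± 0.49 (exact permutation p = 0.921). The developmental myosins Myh3 and Myh8 over the adult ones fell by 0.60 (exact permutation p = 0.00794, adjusted 0.0278).

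**Figure D5:**
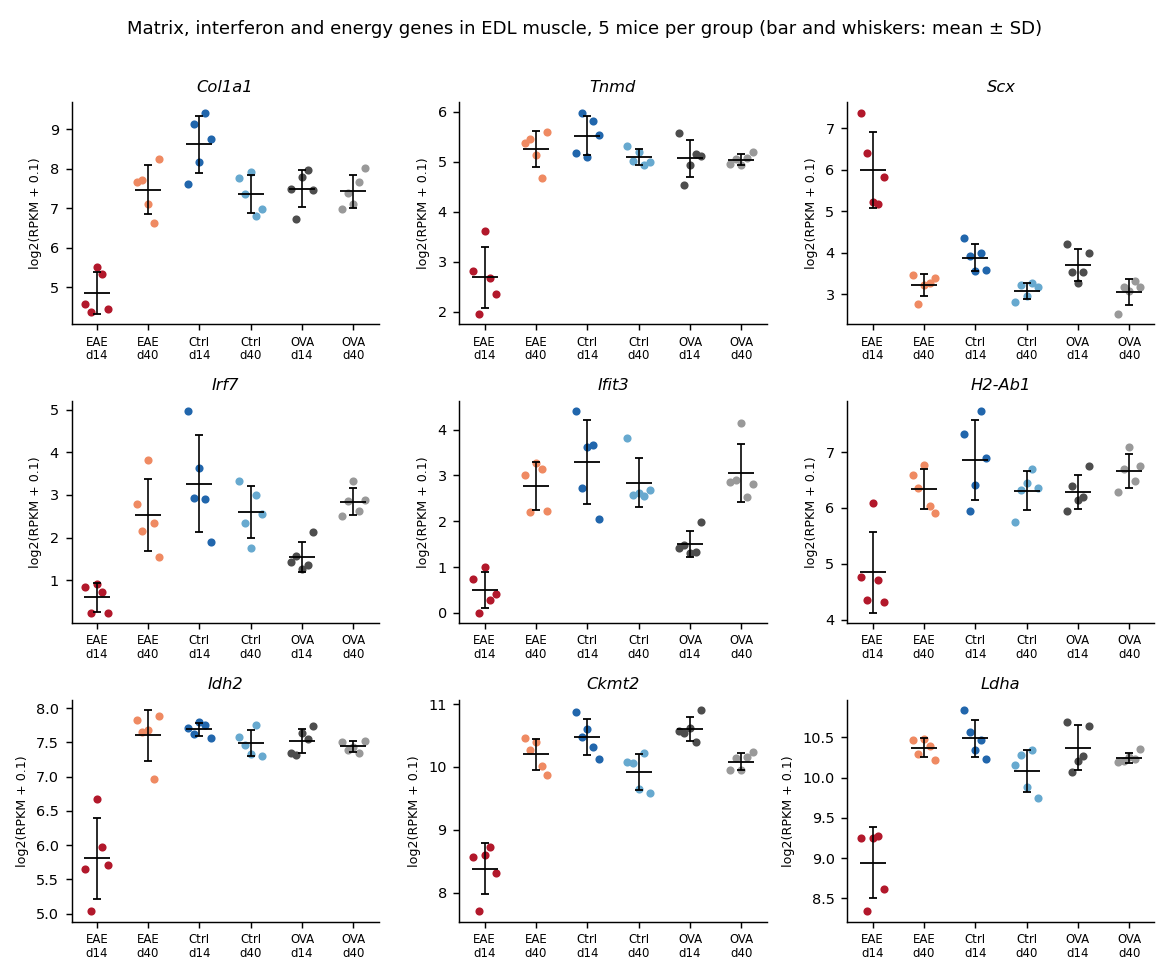
The 9 genes shown, of matrix, interferon response, antigen presentation and energy metabolism, are plotted in the 6 groups as log2(RPKM + 0.1), with a point for each of 5 mice and a bar and whiskers for mean ± SD. In 8 of them the day 14 EAE mice are the lowest group by mean, and in Scx, a tendon transcription factor, they are the highest.

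Collagen genes were higher almost throughout. Of 17 tested collagens 15 were called higher and 0 lower (median 1.07), against 0 higher and 1 of 19 lower in unimmunized and 0 of 17 in OVA mice. The difference from unimmunized mice was called upward in 15 of 17.

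Col1a1, the main chain of fibrillar collagen (Entrez 12842, chr11:94936224-94953042), was at 23.8, 20.6, 45.5, 39.9 and 21.8 RPKM on day 14 and at 203, 208, 137, 98.7 and 301 on day 40. The lowest mouse of day 40 was above the highest of day 14, and on day 14 the replicates 3 and 4, low in the denervation genes, were the 2 highest. The log2 change was 2.62 ± 0.30 (adjusted p = 4.73e-05, limma). Unimmunized mice moved the opposite way, from 432 ± 197 to 172 ± 56.5 RPKM, so that the difference of 3.87 (adjusted p = 3.89e-07, limma) is made up of a fall in the controls and a rise in EAE-induced mice, and OVA mice stood at 186 and 178. Col1a2, its partner chain, increased by 2.37, and Col3a1, the chain of finer fibrils, by 1.75, from 29.8 ± 7.04 to 98.6 ± 10.9 RPKM, with 133 ± 33.4 and 126 ± 23.0 in unimmunized mice. The ratio of Col1a1 to Col3a1 within mice increased by 0.87 on the log2 scale (exact permutation p = 0.0238, adjusted 0.0417) while in unimmunized mice it was 1.61 ± 0.38 and 0.41 ± 0.35 (exact permutation p = 0.00794, adjusted 0.0556). In EAE-induced mice this call too was lost without any mouse but day 14 replicate 3 (adjusted 0.0556 to 0.0926).

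Among 32 genes that process or accompany collagen 13 were higher and 1 lower, Ccn1, an early growth-response protein. Unimmunized mice had 0 of 33 higher and 3 lower, and the difference was called upward in 13 and downward in 2. Sparc, a collagen chaperone of the matrix, increased from 53.3 ± 7.06 to 167 ± 61.1 RPKM, and Loxl2, which crosslinks collagen, from 1.8 ± 0.474 to 7.22 ± 1.09. Fn1, fibronectin, increased from 16.3 ± 7.73 to 32.6 ± 4.29 RPKM, beside 62.6 ± 17.7 in day 40 unimmunized mice (log2 -0.90, adjusted p = 0.0236, limma), a call that was lost with all 30 mice in the model (adjusted p = 0.255). Of 11 fibroblast markers 8 were higher and 0 lower. Unimmunized mice had 3 of the 11 lower, and the difference was called upward in 8. In bulk tissue fewer cells of a type and less RNA per cell cannot be told apart.

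Tendon genes rose with the collagens, 6 of 9 higher and 1 lower. Unimmunized mice had 1 of 9 higher and 2 lower, and the difference was called upward in 6 and downward in 1. Tnmd, tenomodulin, a membrane protein of tendon cells, was at 6.91, 3.78, 12.2, 6.3 and 5.04 RPKM on day 14 and at 41.6, 43.9, 34.8, 25.5 and 48 on day 40. Kera, a small proteoglycan, increased by 1.72, Cilp2, a cartilage matrix protein, by 2.02 and Mfap4, of elastic fibres, by 2.35. The exception was Scx, scleraxis, the transcription factor that specifies tendon cells, at 166, 83.9, 37.3, 35.8 and 56.3 RPKM on day 14 and at 10.9, 6.67, 9.23, 9.52 and 10.3 on day 40. It fell by 2.78 ± 0.35 (SE) on the log2 scale (adjusted p = 8.68e-05, limma), and also in unimmunized mice, by 0.80.

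Immune genes split by type. Of 14 listed neutrophil genes 5 passed the filter, and 5 of 5 fell (median -3.12), or 3 of 4 tested without EAE day 14 replicate 3. In OVA mice 5 of 5 fell as well, while 0 of the 2 that passed the filter in unimmunized mice were called. Genes such as Ngp passed the filter only through day 14, where they were high, so this count was partly set by the filter. The difference in day change was called downward in 4 of 5 against unimmunized mice and in 1 of 5 against OVA mice (median -0.39). S100a8, a calcium-binding protein of myeloid cells (Entrez 20201, chr3:90669071-90670034), was at 335, 334, 130, 168 and 156 RPKM on day 14 and at 2.99, 1.22, 5.84, 2.55 and 17.6 on day 40 (log2 -5.67 ± 0.56, adjusted p = 2.02e-05, limma). Its partner S100a9 did not follow in proportion, with 45.6, 13.8, 57.2, 29.3 and 34.7 RPKM on day 14 and 8.78, 5.86, 12.6, 2.94 and 29.6 on day 40, which overlap. In OVA mice S100a8 averaged 46.5 and S100a9 71.9 RPKM on day 14. Lcn2, lipocalin, which muscle as well as neutrophils can make, fell from 12.4 ± 3.52 to 0.869 ± 0.305 RPKM, and the granule gene Ngp from 3.8 ± 2.45 to 0.338 ± 0.24. Retnlg was not called when single mice were left out (EAE day 14 replicate 1, 3, 4 or 5, EAE day 40 replicate 2 or 4, adjusted p = 0.0531 to 0.0703, limma). Of 12 lymphocyte markers 0 reached the filter, and their summed level was 3.53 to 7.52 RPKM on day 14 and 4.43 to 7.83 on day 40. Trdc, the constant region of the delta T cell receptor, fell from 4.48 ± 2.14 to 0.105 ± 0.106 RPKM, and its joining segments Trdj1 and Trdj2 were also called lower.

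Interferon-response genes were higher in 23 of 27, with 0 lower (median 1.29). In unimmunized mice 0 of 28 were higher and 1 lower, and in OVA mice 15 of 30 were higher, with which EAE-induced mice share the adjuvant. The difference in day change was called upward in 22 of 27 against unimmunized mice and in 2 of 27 against OVA mice.

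Irf7, the transcription factor that amplifies interferon, was at 1.7, 1.08, 1.79, 1.56 and 1.08 RPKM on day 14 and at 6.83, 4.38, 14, 4.93 and 2.84 on day 40. Ifit3, an antiviral effector, was at 1.58, 0.902, 1.9, 1.12 and 1.23 RPKM on day 14 and at 7.91, 4.53, 9.6, 8.72 and 4.54 on day 40 (log2 2.28 ± 0.25, adjusted p = 3.67e-05, limma). In each the groups did not overlap, and day 40 replicate 3 was the highest. The guanylate-binding Gbp3 and the GTPase Iigp1 increased by 2.30 and 2.37, and Isg15, a ubiquitin-like modifier, by 1.97. Unimmunized mice varied widely, with 11.2 ± 6.57 and 7.57 ± 3.57 RPKM of Ifit3 on the 2 days, and each of these mice was above the day 14 EAE mean of 1.35.

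The promoters of Ifit3 (plus strand, chr19:34583279-34583578) and Isg15 (minus strand, chr4:156200769-156201068) are shown with the core of the interferon-stimulated response element in capitals, which is GAAA, any pair of bases and GAAA again, or TTTC, any pair of bases and TTTC on the opposite strand. Ifit3 holds it 156 and 122 bases before its start, and Isg15 has 3 overlapping matches that begin 78, 72 and 66 bases before it (RefSeq, GRCm38.p6, 250 bases before to 50 after the start, 5′ to 3′ along the gene).
Ifit3: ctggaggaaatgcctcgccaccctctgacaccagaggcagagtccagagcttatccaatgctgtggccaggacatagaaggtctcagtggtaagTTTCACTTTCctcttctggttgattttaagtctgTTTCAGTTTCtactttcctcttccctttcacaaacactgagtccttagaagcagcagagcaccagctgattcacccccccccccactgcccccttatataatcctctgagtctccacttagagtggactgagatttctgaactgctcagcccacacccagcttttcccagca
Isg15: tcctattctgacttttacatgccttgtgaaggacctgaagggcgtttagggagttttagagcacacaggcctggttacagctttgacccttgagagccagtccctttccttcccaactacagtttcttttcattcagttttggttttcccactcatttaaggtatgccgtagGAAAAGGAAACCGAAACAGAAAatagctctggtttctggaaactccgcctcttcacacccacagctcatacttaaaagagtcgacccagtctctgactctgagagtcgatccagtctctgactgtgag
On either strand the core was found in 10 of 22 windows of the interferon genes called higher (45.5%), in 3.44% of all 32851 windows and in 2.79% of those of tested genes. It was in 0 of the 16 windows of falling junction and denervation genes and 0 of the 14 windows of rising collagens. The windows of Irf7 and Psmb9 did not hold these letters.

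Antigen presentation rose in 11 of 12 genes, with 0 of 12 called in unimmunized and 3 of 12 higher in OVA mice. All 12 differed upward from the unimmunized change, and 4 of 12 from the OVA change. Summed over the list, unimmunized mice ranged from 742 to 2980 RPKM on day 14. H2-Ab1, a class II chain, was at 27.1, 20.2, 67.6, 26 and 19.9 RPKM on day 14 and at 96.5, 81.9, 109, 65.4 and 60.3 on day 40, with day 14 replicate 3 among the day 40 mice. Cd74, the class II invariant chain, showed the same mouse apart, at 199 RPKM beside 56.5 to 78. B2m, the class I light chain, increased by 0.94, and Psmb9, an immunoproteasome subunit, by 1.43 while the constitutive proteasome fell. Complement was higher in 4 of 15 and macrophage markers in 2 of 10, and these counts were 7 and 5 without EAE day 14 replicate 3 and 2 and 1 without EAE day 14 replicate 1 or 2 or EAE day 40 replicate 1. Complement was also 7 without EAE day 40 replicate 2 and 2 without EAE day 40 replicate 3 or 4, and macrophage markers 1 without EAE day 14 replicate 5. Unimmunized mice had 2 of 15 complement genes lower and 0 of 10 macrophage markers called. The difference was called upward in 8 and downward in 1 for complement, and upward in 3 for macrophage markers.

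Ighm, the heavy chain of immunoglobulin M (Entrez 16019, chr12:113418826-113422730), was at 1.9, 1.81, 8.03, 3.5 and 3.69 RPKM on day 14 and at 41.8, 32.7, 37.1, 32.4 and 18.6 on day 40, against 25.9 ± 7.37 and 33.5 ± 4.67 in unimmunized mice. The day 14 EAE mice were thus the low group. The erythrocyte list was higher in 6 of 6 genes, with summed levels of 55.8 to 259 RPKM on day 14 and 240 to 1050 on day 40. Hba-a1, alpha globin, was at 87.7, 16.8, 67, 56.9 and 12.4 RPKM on day 14 and at 679, 132, 525, 80.8 and 200 on day 40, so that the groups overlapped, and its near-identical copy Hba-a2 may share its reads. In unimmunized mice 0 of 6 were called.

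Among the strongest increases outside the intestine, the highest was that of Ostn, osteocrin, also called musclin, a peptide that muscle secretes (Entrez 239790, chr16:27307641-27351209). It was at 0.687, 0.434, 1.36, 0.973 and 0.968 RPKM on day 14 and at 13.3, 14.9, 11.8, 9.39 and 4.04 on day 40 (log2 3.40 ± 0.34, adjusted p = 2.32e-05, limma). It was called higher in unimmunized mice too, from 5.7 ± 1.45 to 13.0 ± 5.13 RPKM, and the difference of 2.32 held (adjusted p = 0.000156, limma). Ociad2, a mitochondrial membrane protein, increased by 2.68 and Nrep, a neuronal regeneration-related protein, by 2.58, from 9.57 ± 5.3 to 50.2 ± 8.42 RPKM. Tgtp1, an interferon-inducible GTPase, increased by 2.38 and was not called in the test of the difference from unimmunized mice (adjusted p = 0.172, limma).

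Other lists are given by counts, to be read against the 21.3% of all tested genes that were called in either direction. Schwann cell and myelin genes had 0 of 7 called, endothelium 2 of 11 (a count that changed with every mouse left out, from 0 without EAE day 40 replicate 1 to 4 without EAE day 14 replicate 1 or EAE day 40 replicate 5), adipocytes 1 of 7 (3 without EAE day 40 replicate 2), the cell cycle 3 of 11, branched-chain amino acid and glutamine metabolism 2 of 16, NF-kB subunits and targets 5 of 19 and the integrated stress response 7 of 19. Of 12 myosins 5 were called (3 without EAE day 14 replicate 2, 3 or 4 or EAE day 40 replicate 1 or 3), of 20 calcium-handling genes 6, and of 18 genes of interleukin 6, STAT3 and acute phase 9, with 7 lower. In all, the 51 lists hold 840 tested genes, of which 165 were higher and 218 lower, against 721 and 1136 of all 8709.

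On day 40 the EAE-induced mice were also compared with unimmunized mice of the same day. Among 8691 tested, 6 were called above the unimmunized level (0.0690%) and 34 below it (0.391%), together 0.460%, and without Ctrl day 40 replicate 4 the counts were 21 and 181, and without EAE day 40 replicate 3 they were 0 and 1. Of the genes described here, Fbxo32 (log2 -0.61, adjusted p = 0.0312, limma) and Fn1 were called lower in EAE-induced mice. Of 22 alternatives, 13 lost the call of Fbxo32 and 8 that of Fn1. Both calls were lost with all 30 mice in the model (adjusted p = 0.359 for Fbxo32), with the replicate block (adjusted p = 0.096 and 0.0764, limma), with only the 10 mice compared, after length correction, and without Ctrl day 40 replicate 1, 3 or 5 or EAE day 40 replicate 3. That of Fbxo32 was also lost without a filter, after median-of-ratios scaling and without EAE day 40 replicate 2, 4 or 5. Myog, Chrna1, Ankrd1 and Col1a1 had differences of 0.18, -0.08, 0.21 and 0.10 on the log2 scale and were not called (SE 0.24, 0.10, 0.33 and 0.28), which does not show that the groups were alike.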

How the data were processed

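EDL muscle RNA was sequenced from 30 mice, 5 per treatment and day, and groups were taken from the sample labels. The authors aligned reads to mm10 with Subread and counted them with featureCounts. The deposited values are log2 of RPKM + 1, as the authors' table gives them, for 21073 genes, and base 2 was taken because RPKM weighted by exon length then summed to 1.11 to 1.14 times the expected total in every library. They were turned back into RPKM, and values at the table's floor (0.0001, 25.8% of all) were read as 0. Counts are not used here, so the study's count model was replaced by limma 3.58.1 (R 4.3.3, trended empirical Bayes) on log2(RPKM + 0.1), which understates changes of low genes.

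Genes with a mean above 3 RPKM in either compared group were tested. Calls were made at a false discovery rate of 0.05 (Benjamini-Hochberg) among genes that changed over 1.5-fold. Day comparisons used their own 10 mice, differences between day changes all 30, and day 40 EAE against Ctrl the 15 mice of that day. Ratios within a mouse were tested by two-sided exact permutation. p-values measure the spread between separately labelled mice.

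Entrez identifiers matched RefSeq symbols for 20857 genes (99.0%), and 1000 of 1003 list genes were found. Members and lists were chosen with earlier results of these data known. Described genes came from the lists, the 15 largest non-overlapping changes in each direction, and the 5 largest differences from Ctrl in each direction. Reads on genes, 17940000 to 31340000 per library as estimated from the value of a single read, limit the precision of low genes. In simulated data drawn from the real means and spread, 200 genes were changed, some by a log2 size of 1 and the others by 2. Of these, 93% and 96% were called, with 3 false calls. Alternatives were other pseudocounts, filters, scalings and samples, a replicate block, leaving out each mouse and, chosen after seeing the data, a correction for exon length and the removal of intestinal genes. 1 gene of the lists is counted in them and not reported here by name.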

Additional observations from a re-analysis of the deposited data

Results flagged for a closer look

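Of 239 groups of 5 mice looked at for the described genes, 18 had a mouse whose gap to its nearest neighbour passed Dixon's 95% critical value, where chance gives about 1 in 20 groups. On day 40, EAE replicate 5 stood apart in 6 of these genes, with 6.51 RPKM of Chrna1, 1.18 of Krt18, 17.6 of S100a8, 383 of Myl3, 164 of Tpm3 and 13.9 of Rrp12, each above the other 4 mice. On day 14, EAE replicate 3, the deepest library, stood apart in 5, with 67.6 RPKM of H2-Ab1, 199 of Cd74, 8.04 of Ngp and 6.67 of Colq above, and 184 of Glul below the others. The remaining values were 19.4 RPKM of Musk in day 14 replicate 2, 458 of Rplp2 in day 14 replicate 1, 0.0482 of Apoa1 in day 14 replicate 4 where the others were at 0, 5.26 of Colq and 6.16 of Tgtp1 in day 40 replicate 4, 0.747 of Ngp in day 40 replicate 1 and 9760 of Pvalb in day 40 replicate 2.

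In 9 described genes the day change was called in opposite directions in EAE-induced and unimmunized mice, and the difference between the changes was called as well. The differences on the log2 scale, tested as an interaction in limma, were 2.98 for Actc1, 3.87 for Col1a1, 2.50 for Sparc, 3.44 for Cilp2, 3.10 for Mfap4, 1.94 for Cox7a1 and 1.33 for Ndufb9, and -2.19 for Fbxo32 and -2.95 for Per1.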

How the results depend on the processing

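Of the 122 described genes, 88 kept their direction and their side of the threshold in all 20 alternatives. A further 25 kept them in the 18 or 19 alternatives whose filter they passed, 9 lost or gained a call, and no direction was reversed in any alternative. Limits are that treatment day and the intestinal transcripts cannot be told apart, that day 14 mice varied more, and that control counts rest on few mice. For EAE day 40 against day 14 the counts were 1555 higher without a filter, 395 higher and 752 lower above 10 RPKM, and 1488 and 2747 without a fold threshold. For unimmunized mice they were 323 higher without a filter, 71 higher above 10 RPKM, 483 and 674 without a fold threshold, 441 higher with all 30 mice in the model, and 108 and 194 after length correction. For OVA mice they were 599 higher without a filter, 53 higher above 10 RPKM, and 406 and 205 without a fold threshold. The difference from unimmunized mice gave 649 and 971 above 10 RPKM, and downward 1221 after quantile normalization, 2874 without a fold threshold and 1113 after length correction. The difference from OVA mice gave downward 732 above 10 RPKM, 731 after quantile normalization, 2133 without a fold threshold and 788 after length correction. For day 40 EAE against Ctrl, the higher and lower counts were 0 and 15 with a pseudocount of 1, 3 and 5 above 10 RPKM, 10 and 11 after median-of-ratios scaling, 25 and 204 without a fold threshold, 1 and 5 with only 10 mice, 0 and 0 with all 30, and 1 and 12 after length correction, and the lower count was 19 with a pseudocount of 0.5 and 4 after quantile normalization. The cause of these moves was not tested.

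Leaving out each mouse gave 596 to 861 higher and 1003 to 1265 lower in EAE-induced mice, 33 to 508 and 123 to 514 in unimmunized mice, 140 to 258 and 51 to 187 in OVA mice, 854 to 1130 and 1501 to 2055 for the difference from unimmunized mice, 555 to 811 and 1022 to 1376 for that from OVA mice, and 0 to 21 and 1 to 181 for day 40 EAE against Ctrl. The ratio changes ranged from -4.65 to -4.04 for Chrng to Chrne, 0.47 to 0.69 for Myh4 to Myh1, 0.66 to 1.02 for Col1a1 to Col3a1, -0.65 to -0.54 for developmental myosins, 0.20 to 0.37 for Ldha to Ldhb, -0.03 to 0.28 for Myh4 to Myh7 and -0.06 to 0.24 for Atp2a1 to Atp2a2. The last 2 changed sign, Myh4 to Myh7 at -0.00 without day 14 replicate 1 and -0.03 without day 40 replicate 3, and Atp2a1 to Atp2a2 at -0.03 without day 14 replicate 2, -0.02 without day 40 replicate 1 or 4 and -0.06 without day 40 replicate 3.

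Replicate numbers share only a number: same-numbered EAE mice deviated together with correlations of 0.01 to 0.34. With a replicate block the EAE counts were 733 and 1141, the unimmunized counts 36 and 141, and day 40 EAE against Ctrl 0 and 1. Paired, the ratio changes were -4.31 for Chrng to Chrne, 0.56 for Myh4 to Myh1, -0.60 for developmental myosins and 0.87 for Col1a1 to Col3a1, with adjusted exact permutation p of 0.146, 0.146, 0.146 and 0.175, since 5 pairs cannot go under 0.05.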
